A study of Homo sapiens with 6 samples.

Results

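MicroRNA host genes are long transcripts that carry microRNA hairpins in their exons or introns. The host gene transcripts described here are the rows of the deposited gene table whose symbol starts with MIR and ends with HG, 75 of 38637 genes. They were measured in OVCAR8, a human ovarian cancer cell line, treated for 72 h with the DMSO vehicle or with 2 nM pladienolide B (plaB), with 3 samples in each group. Pladienolide B is a small molecule that binds SF3B1, a core subunit of the U2 snRNP, and inhibits pre-mRNA splicing. Both groups came from the same wild-type line, so the values describe 1 cell line, 1 dose and 1 time. RNA was enriched with oligo(dT) before sequencing, so the reads come from polyadenylated host transcripts and not from mature microRNAs.

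A host gene is transcribed by RNA polymerase II, and its hairpins are cut out by DROSHA with DGCR8, exported, trimmed by DICER1 and loaded onto AGO proteins. Several hosts serve as readouts of the factor that drives them. MIR210HG, host of the hypoxia microRNA miR-210, is a target of HIF1A. MIR17HG, host of the miR-17-92 cluster, is activated by MYC. MIR34AHG is the host of miR-34a, which restrains the cell cycle.

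The mature sequences below are those of the hosts on which the comparisons turn. They were taken from RefSeq with GRCh38.p14 positions, are written 5′ to 3′, and carry the seed, bases 2 to 8, in capitals. The first set belongs to the hosts assigned to hypoxia and MYC and to MIR34AHG. Within the MYC-driven cluster, miR-17-5p and miR-20a-5p have the same seed, as do miR-19a-3p and miR-19b-3p.
miR-210-3p of MIR210HG: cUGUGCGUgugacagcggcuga
miR-34a-5p of MIR34AHG: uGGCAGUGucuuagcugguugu
miR-17-5p of MIR17HG: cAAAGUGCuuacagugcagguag
miR-20a-5p of MIR17HG: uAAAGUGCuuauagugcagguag
miR-18a-5p of MIR17HG: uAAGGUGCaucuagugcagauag
miR-19a-3p of MIR17HG: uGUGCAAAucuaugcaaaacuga
miR-19b-3p of MIR17HG: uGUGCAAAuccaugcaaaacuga
miR-92a-3p of MIR17HG: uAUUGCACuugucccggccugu

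The second set belongs to hosts that were lower after plaB, with MIR9-1HG, which did not pass the test, beside MIR9-3HG because both carry miR-9.
miR-193b-3p of MIR193BHG: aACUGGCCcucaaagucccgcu
miR-365a-3p of MIR193BHG: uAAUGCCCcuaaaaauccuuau
miR-22-3p of MIR22HG: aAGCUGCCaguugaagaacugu
miR-503-5p of MIR503HG: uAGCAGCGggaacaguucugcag
miR-155-5p of MIR155HG: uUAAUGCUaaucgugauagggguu
miR-9-5p of MIR9-3HG and MIR9-1HG: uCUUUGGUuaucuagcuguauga

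The last set belongs to hosts that were higher, with other hosts of the let-7 seed. The let-7 seed is found in microRNAs of 3 measurable hosts, MIR100HG, MIRLET7BHG and MIR4458HG.
miR-31-5p of MIR31HG: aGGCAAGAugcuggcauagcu
miR-100-5p of MIR100HG: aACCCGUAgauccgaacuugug
miR-125b-5p of MIR100HG: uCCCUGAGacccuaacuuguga
let-7a-5p of MIR100HG and MIRLET7BHG: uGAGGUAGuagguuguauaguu
let-7b-5p of MIRLET7BHG: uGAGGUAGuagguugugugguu
miR-4458 of MIR4458HG: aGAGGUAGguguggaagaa
miR-23a-3p of MIR23AHG: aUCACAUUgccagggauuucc
miR-27a-3p of MIR23AHG: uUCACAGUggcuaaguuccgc
miR-24-3p of MIR23AHG: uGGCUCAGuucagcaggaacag
miR-4435 of MIR4435-2HG: aUGGCCAGagcucacacagagg

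The deposited values are reads adjusted to a common library size, called adjusted reads here, and whole reads could be recovered from them. The 6 samples held 22621338 to 26130882 recovered reads on genes. DMSO replicate 2 stood apart, since its chi-square per gene against the other DMSO samples was 7.58 and 7.64, where the other DMSO pair gave 1.94 and the plaB pairs 3.33 to 4.95. From a list of 10 ovarian cancer and epithelial markers, PAX8 and MSLN had 4108 ± 84.6 and 4994 ± 150 adjusted reads in DMSO (SD, n = 3). WT1, MUC16 and WFDC2 were between 18.0 and 20.6. The rest of this list, EPCAM, CDH1 and the keratins KRT7, KRT8 and KRT18, is not given here, so these values do not describe epithelial identity. CD3E and DCN were at 0 in the DMSO samples, and PTPRC had a mean of 0.32. COL1A1 and CD68, from the same list of immune, endothelial and fibroblast markers, were well above 0 with means of 6800 and 1146. CD14, PECAM1 and VWF of that list are not given.

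Most host genes had few or no reads in this line. A mean of at least 10 adjusted reads over the 6 samples was reached by 23 of the 75 hosts, which are called measurable. Of the other 52, 20 had no read in any sample and 32 had some reads. A minimum of 5 would leave 27 hosts and a minimum of 20 would leave 20. The lowest measurable hosts were MIR762HG, MIR5689HG and MIR100HG, with means of 14.4, 15.9 and 16.1, and the highest of the others were MIR34AHG and MIR181A2HG, with 9.97 and 8.89. Among the hosts near 0 were MIR122HG, host of the liver microRNA miR-122, and MIR223HG, host of the myeloid miR-223, with 1 read each. MIR200CHG, host of the epithelial miR-200c and miR-141, had 2 reads, both in plaB. These examples do not stand for all hosts of lineage-restricted microRNAs, which were not examined as a class. All hosts together took 0.0232% to 0.0243% of the reads of a sample, and MIR4435-2HG alone took 49.9% of these.

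**Figure D1:**
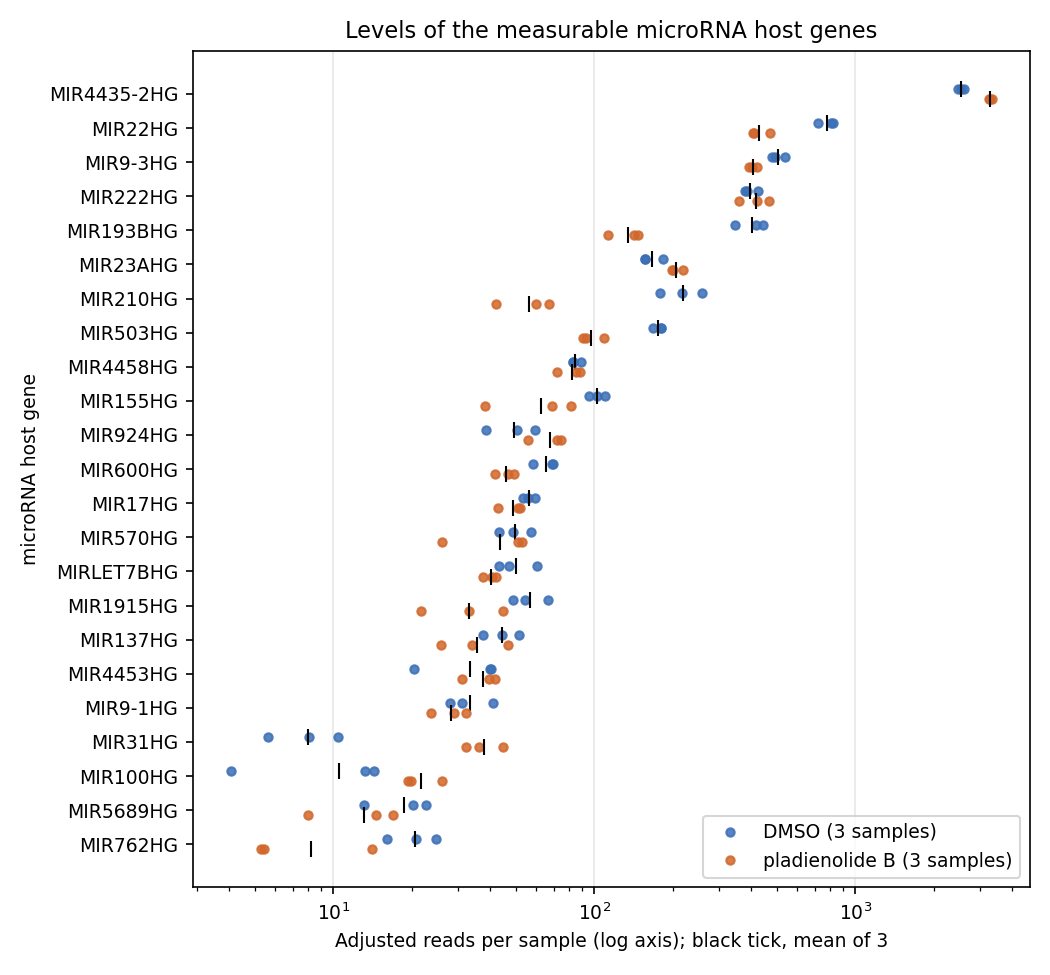
Adjusted reads per sample, on a log axis, for the 23 measurable microRNA host genes, with 1 point for each of 3 DMSO (blue) and 3 plaB (orange) samples and a black tick at each group mean. MIR4435-2HG sits between 2488 and 3336 in every sample, and the groups are farthest apart for MIR193BHG, MIR210HG and MIR31HG.

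The comparison of plaB with DMSO was tested with limma on log2(adjusted reads + 1), a scale that understates the change of hosts with few reads. It covered the 16178 genes that passed the filter on low values, among them 24 hosts: the 23 measurable ones and MIR181A2HG. After Benjamini-Hochberg adjustment over all tested genes, 13 hosts had an adjusted p below 0.05, 54.2% of those tested, beside 47.6% of all genes. This share is near that of all genes. Of the hosts, 9 were lower and 4 higher, 37.5% and 16.7%, where 25.2% of all genes were lower and 22.4% higher. The host count rested in part on single samples: it was 9 without DMSO replicate 2, 9 without plaB replicate 1 and 8 without plaB replicate 2, and the number higher was 2 without DMSO replicate 2 or any 1 plaB replicate. Among the 1845 tested genes that the table types as long noncoding RNA, 27.2% were called. The median level was 54.1 adjusted reads for the tested hosts, 31.9 for the long noncoding RNAs and 507 for all tested genes. The median log2 fold change of the 23 measurable hosts was -0.31, beside -0.004 over all genes and -0.05 over the long noncoding RNAs. In bulk RNA, fewer cells that express a host and less of its RNA per cell cannot be told apart.

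Among the tested hosts, 5 had both an adjusted p below 0.05 and a change of at least 2-fold. MIR210HG, MIR193BHG and MIR762HG were lower, where 1.98% of all tested genes met both conditions and fell. MIR31HG and MIR100HG were higher, where 1.95% of all tested genes met both and rose. The groups did not overlap for 15 of the 23 measurable hosts, 11 lower and 4 higher, beside 55.3% of all tested genes.

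**Figure D2:**
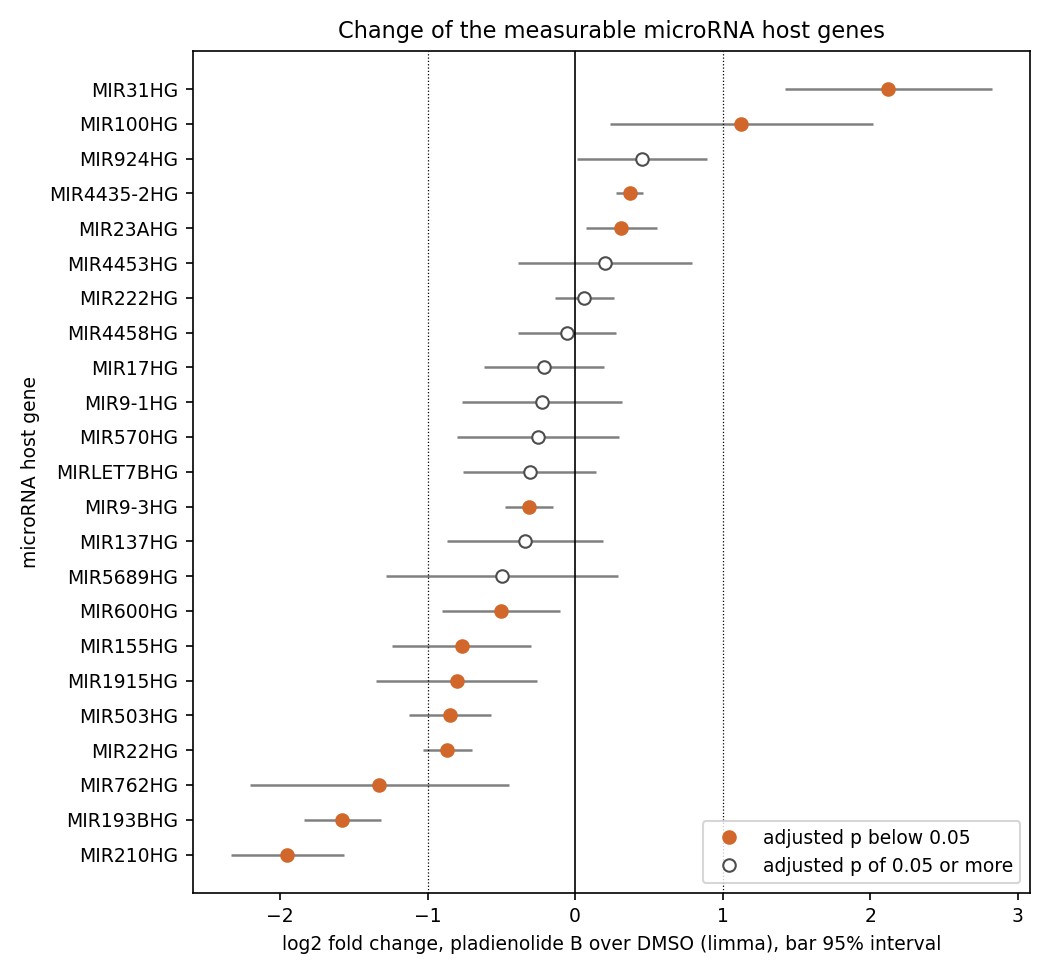
Log2 fold change of plaB over DMSO for the 23 measurable microRNA host genes (horizontal axis), with bars for the 95% interval from limma; filled points have an adjusted p below 0.05 and dotted lines mark a 2-fold change. MIR210HG lies lowest at -1.95 and MIR31HG highest at 2.12, and 10 hosts have open points.

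MIR210HG (chr11:565657-568457, minus strand, GRCh38) showed the largest fall among the hosts tested. Its adjusted reads were 216, 180 and 260 in DMSO replicates 1 to 3 and 41.9, 59.7 and 67.1 in plaB replicates 1 to 3. Every treated sample lay below every DMSO sample, and DMSO replicate 2 was the lowest of its group. The log2 fold change was -1.95 (SE 0.18, limma adjusted p = 1.94e-07), which left 25.7% of the mean DMSO level. Without DMSO replicate 2 it was -2.08. The hairpin of miR-210 lies in an intron of all 9 annotated MIR210HG transcripts that span it in GENCODE. Its own row in the table had 2, 2 and 8 reads in DMSO and 0, 2 and 2 in plaB, too few for the test.

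The sequence around the RefSeq start of MIR210HG is shown because hypoxia factors bind a short core motif. In this window of 300 bases (chr11:568408-568707, minus strand, GRCh38.p14), the core letters ACGTG or GCGTG, searched on both strands, are in capitals and the strand of the gene is written.
MIR210HG promoter: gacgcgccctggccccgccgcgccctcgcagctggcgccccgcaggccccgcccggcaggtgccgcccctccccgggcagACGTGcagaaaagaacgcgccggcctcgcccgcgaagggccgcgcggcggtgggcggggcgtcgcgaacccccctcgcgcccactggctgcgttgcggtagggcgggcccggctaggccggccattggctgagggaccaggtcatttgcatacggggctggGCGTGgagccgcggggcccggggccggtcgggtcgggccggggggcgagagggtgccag
The window held 2 such cores. One or more is present in 48.4% of the 35116 RefSeq promoter windows of this length, and in a window of 12 of the 22 measurable hosts that have one. The first share counts windows and the second counts hosts, some of which, such as MIR100HG and MIR9-3HG, have several windows, so they are unlike measures. The E-box CACGTG, the MYC core, is in 7.26% of all windows and in a window of 0 of these 22 hosts. The MIR17HG window held 0 hypoxia cores and that of MIR34AHG held 3. These matches describe letters and not binding.

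The hosts driven by hypoxia and by MYC were set against genes that the same factors are known to activate. Of 24 hypoxia targets, 23 were tested, of which 21 fell and 1 rose, with a median log2 fold change of -0.88, where 25.2% of all tested genes fell and 22.4% rose. DDIT4, an mTORC1 inhibitor, HK2, a hexokinase, and PFKFB4, a regulator of glycolysis, fell most, with log2 fold changes of -2.70, -2.12 and -1.93. CA12, a carbonic anhydrase, was the target that rose, by 0.62 on the log2 scale (limma adjusted p = 0.00114). MIR210HG, at -1.95, thus fell further than the median of this list and less than DDIT4 and HK2. Relative to the DMSO mean, the median of the list was 0.08, -0.16 and 0.08 in DMSO replicates 1 to 3 and -1.06, -0.90 and -0.85 in the treated samples. DMSO replicate 2 was the lowest of its group in this list as it was for MIR210HG. What sets this sample apart was not tested. The HIF1A and EPAS1 transcripts were higher, by 0.82 and 0.72 on the log2 scale, with adjusted p-values of 6.32e-06 and 0.000476 by limma. ARNT, the partner of both factors, had a log2 fold change of -0.02 (limma adjusted p = 0.796). HIF1A had 3770, 5462 and 3499 adjusted reads in DMSO replicates 1 to 3, so replicate 2 was the highest. The protein of these factors was not measured here.

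MIR34AHG (chr1:9148011-9182338, minus strand, GRCh38), host of miR-34a, had a mean of 9.97 and so fell just short of being measurable. Its recovered reads were 12, 10 and 24 in DMSO and 4, 8 and 3 in plaB. The treated samples were all below the DMSO samples, although the highest treated sample and the lowest DMSO sample differed by 2 reads. It did not pass the filter on low values. When every gene with a read was kept, its log2 fold change was -1.35 (SE 0.51) with an adjusted p of 0.0585 by limma, which missed the threshold. MIR194-2HG, host of miR-194 and miR-192, had 3 reads in DMSO and 2 in plaB, which allows no comparison.

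MIR17HG (chr13:91347820-91354575, plus strand, GRCh38), the MYC-driven host, had 53.6, 59.5 and 55.7 adjusted reads in DMSO and 42.8, 51.2 and 52.1 in plaB. The treated samples were all below the DMSO samples, but the groups came as near as 53.6 and 52.1. The log2 fold change of -0.21 had a 95% interval from -0.62 to 0.20 and an adjusted p of 0.398 by limma, so a change was not detectable at this depth. The interval covers falls of the size that MIR9-3HG and MIR600HG showed. MYC fell by 0.39 on the log2 scale (limma adjusted p = 9.4e-06). MNT and MXD1, repressors that compete with MYC for MAX, fell by 0.58 and 0.40, although the groups of MXD1 overlapped. MAX itself rose by 0.19 (limma adjusted p = 0.00602). Of 22 MYC targets, all were tested, of which 8 rose and 3 fell, with a median log2 fold change of 0.05. Over all tested genes 22.4% rose and 25.2% fell, and 47.6% were called in either direction, so the number of MYC targets called is near the share of all genes. RRP9, MYBBP1A and NOLC1, which act in ribosome production, rose most, by 0.70, 0.65 and 0.43 on the log2 scale.

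Of the 4 hosts that were assigned to a class repressed by MYC, 2 were tested and 1, MIR100HG, passed the test. The class need not hold every host that MYC represses, so it does not stand for all of them. MIRLET7BHG, host of let-7a-3 and let-7b, had 43.1, 60.4 and 47.2 adjusted reads in DMSO and 37.6, 40.6 and 42.1 in plaB, and its log2 fold change of -0.31 had an adjusted p of 0.254 by limma. MIR100HG, which carries miR-100, let-7a-2 and miR-125b-1, was higher, a call that was lost without DMSO replicate 2, and is described with the hosts that rose. MIR99AHG, the paralogous host of miR-99a, let-7c and miR-125b-2, had 10, 14 and 12 reads in DMSO and 2, 0 and 9 in plaB. It did not pass the filter on low values, and in the fit that kept every gene its log2 fold change was -1.95 (limma adjusted p = 0.0321). MIR29B2CHG, host of miR-29b-2 and miR-29c, had 6 reads in DMSO and 1 in plaB. miR-100-5p and miR-99a-5p have the same seed, and so do the let-7 copies of these hosts, while MIR100HG and MIR99AHG had fold changes of opposite sign. Both rest on few reads, and the difference between them was not tested.

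The inequality of these hosts was measured within each sample as the difference of their log2 values. MIR210HG exceeded MIR17HG by 1.99, 1.58 and 2.20 in DMSO replicates 1 to 3 and by -0.03, 0.22 and 0.36 in plaB replicates 1 to 3. These values did not overlap. The mean difference was 1.92 ± 0.32 in the DMSO samples and 0.18 ± 0.20 after plaB (SD, n = 3 each), so MIR210HG lost 1.74 on the log2 scale relative to MIR17HG. A two-sided exact permutation test gave p = 0.1, the smallest that 3 samples against 3 allow. The same quantity was -0.60 for MIR210HG against MIR34AHG and -1.14 for MIR34AHG against MIR17HG, given without a test because of the low reads of MIR34AHG.

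**Figure D3:**
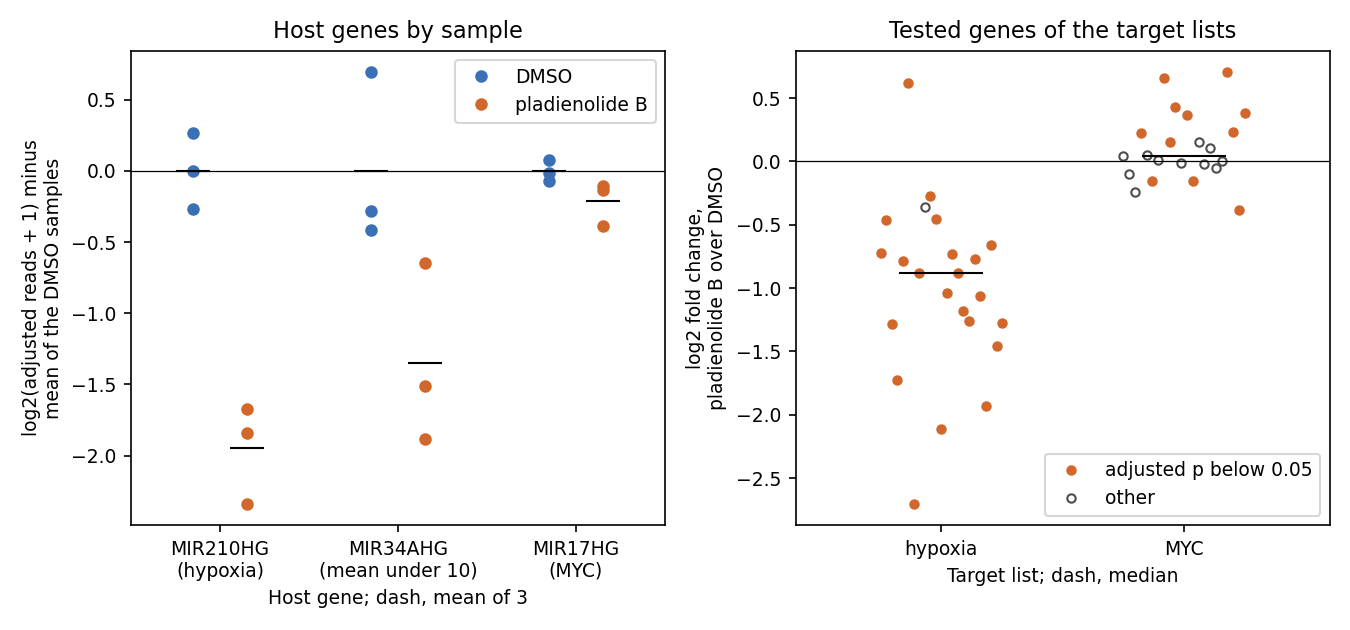
Left, log2(adjusted reads + 1) minus the DMSO mean for MIR210HG, MIR34AHG and MIR17HG in 3 DMSO (blue) and 3 plaB (orange) samples, with a dash at each mean. Right, log2 fold changes of the tested hypoxia and MYC target genes, filled where the adjusted p is below 0.05, with a dash at each median, which is -0.88 and 0.05.

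Hosts driven by NF-kB or AP-1 were the other class examined. MIR155HG, host of the inflammatory miR-155, had 95.9, 103 and 110 adjusted reads in DMSO and 68.7, 81.6 and 38.1 in plaB. The groups did not overlap, and plaB replicate 3 was well below the other treated samples. The log2 fold change was -0.77 (SE 0.22, limma adjusted p = 0.00931), and it was -0.45 (limma adjusted p = 0.0498) without plaB replicate 3. The call was lost without limma's variance trend, where the adjusted p was 0.078. MIR222HG, host of miR-221 and miR-222, which target the cell cycle inhibitor CDKN1B, had 379, 386 and 425 adjusted reads in DMSO and 422, 466 and 360 in plaB. The groups overlapped, and the log2 fold change of 0.06 had a 95% interval from -0.14 to 0.26 and an adjusted p of 0.624 by limma. Without plaB replicate 2 it was -0.024. MIR3142HG, host of miR-146a, had 4 reads in DMSO and 11 in plaB.

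MIR193BHG (chr16:14301381-14331062, plus strand, GRCh38) carries miR-193b and miR-365a in introns. Its adjusted reads were 443, 347 and 416 in DMSO and 143, 113 and 147 in plaB. Every treated sample was far below every DMSO sample, and 33.4% of the mean DMSO level was left. The log2 fold change was -1.58 (SE 0.12, limma adjusted p = 2.55e-08), and the fits that each lacked 1 sample ranged from -1.68 to -1.46.

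MIR22HG (chr17:1711504-1716272, minus strand, GRCh38) was the second most abundant host by reads and carries miR-22 in an exon of 30 of its 32 GENCODE transcripts. It had 718, 820 and 807 adjusted reads in DMSO and 410, 471 and 405 in plaB. The groups were well separated, and the log2 fold change was -0.87 (SE 0.08, limma adjusted p = 1.54e-07). MIR503HG (chrX:134543377-134546630, minus strand, GRCh38), host of miR-503, had 168, 180 and 180 adjusted reads in DMSO and 90.8, 93.0 and 109 in plaB. It fell by 0.85 on the log2 scale (SE 0.13, limma adjusted p = 4.78e-05), and the groups did not overlap. The neighbouring hairpin of miR-424 is spanned by 0 annotated MIR503HG transcripts. The row of the miR-503 hairpin had 15 reads in DMSO and 3 in plaB.

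miR-9 is made from several loci, of which MIR9-3HG and MIR9-1HG were measurable. MIR9-3HG (chr15:89361579-89398487, plus strand, GRCh38) had 494, 539 and 480 adjusted reads in DMSO and 401, 392 and 422 in plaB, with no overlap. It fell by 0.31 on the log2 scale (SE 0.08, limma adjusted p = 0.00289). MIR9-1HG had a mean of 30.9 adjusted reads and a log2 fold change of -0.22, with a 95% interval from -0.77 to 0.32. The 2 hosts of the same mature microRNA thus had the same sign, and the difference between their changes was not tested.

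The other lower hosts had fewer reads, and their calls, like that of MIR155HG, did not hold under every alternative. MIR600HG had 58.2, 69.5 and 69.1 adjusted reads in DMSO and 46.9, 41.8 and 49.1 in plaB, without overlap. Its log2 fold change was -0.50 (limma adjusted p = 0.0376), and the adjusted p was 0.0956, 0.108, 0.0665 and 0.105 without DMSO replicate 2, DMSO replicate 3, plaB replicate 1 and plaB replicate 2. MIR600HG lies within STRBP on the same strand, and STRBP, an RNA-binding protein gene, had a log2 fold change of -0.01. STRBP had means of 1542 adjusted reads in DMSO and 1529 in plaB, and reads of its unspliced RNA cannot be told apart from those of MIR600HG by strand. MIR1915HG had 54.5, 66.5 and 49.0 adjusted reads in DMSO and 44.6, 21.7 and 33.1 in plaB, and plaB replicate 2 was the lowest. Its groups did not overlap, and the log2 fold change was -0.80 (limma adjusted p = 0.0163), with adjusted p-values of 0.0586 without DMSO replicate 2 and 0.0901 without plaB replicate 2. MIR762HG had 22, 16 and 26 recovered reads in DMSO and 5, 5 and 14 in plaB, where replicate 3 stood above the other treated samples. Its log2 fold change was -1.33 (SE 0.42, limma adjusted p = 0.0144), and the adjusted p was 0.0639, 0.0552 and 0.057 without DMSO replicate 3, plaB replicate 1 and plaB replicate 2. MIR762HG overlaps BCL7C on the opposite strand, which had a log2 fold change of -0.39, and since it is not known whether reads were counted by strand, reads of both genes cannot be told apart.

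Among the hosts that rose, MIR31HG (chr9:21454268-21559798, minus strand, GRCh38), host of miR-31 and also studied as a regulator of senescence, changed most. It had 10.4, 8.06 and 5.61 adjusted reads in DMSO and 32.4, 44.6 and 36.1 in plaB. The lowest treated sample was above the highest DMSO sample, and the fold change was 4.36 on the log2(value + 1) scale, a log2 fold change of 2.12 (SE 0.33, limma adjusted p = 5.49e-05). The fits that each lacked 1 sample ranged from 1.92 to 2.31. IFNE, an interferon gene within MIR31HG on the same strand, had 6 reads in DMSO and 16 in plaB.

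MIR100HG (chr11:122028329-122422871, minus strand, GRCh38) had 13.3, 4.05 and 14.3 adjusted reads in DMSO and 19.8, 19.3 and 26.1 in plaB. The groups did not overlap, but DMSO replicate 2 was far below the other DMSO samples. The log2 fold change was 1.13 (SE 0.42, limma adjusted p = 0.0365) with all samples and 0.61 (limma adjusted p = 0.168) without DMSO replicate 2. The adjusted p was also above the threshold, between 0.0689 and 0.129, without each of the plaB replicates. MIR23AHG (chr19:13834516-13842918, minus strand, GRCh38), the primary transcript of miR-23a, miR-27a and miR-24-2, had 184, 157 and 157 adjusted reads in DMSO and 219, 199 and 200 in plaB. Its log2 fold change was 0.31 (SE 0.11, limma adjusted p = 0.0321). The adjusted p rose to between 0.051 and 0.117 when any 1 of DMSO replicates 2 and 3 and plaB replicates 1 to 3 was left out.

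MIR4435-2HG (chr2:111195866-111495161, minus strand, GRCh38), whose mouse counterpart Morrbid is known for the survival of myeloid cells, was the most abundant host by reads. It had 2536, 2620 and 2488 adjusted reads in DMSO and 3252, 3336 and 3285 in plaB. The groups were well separated, and the log2 fold change was 0.37 (SE 0.04, limma adjusted p = 2.39e-06). This value is uncertain because MIR4435-2HG has a closely related copy, CYTOR: of the 50-base windows of its canonical transcript in GENCODE, 43.3% are found in a CYTOR transcript, and over all 108 of its transcripts 27.6% are, so reads could be divided between the copies. CYTOR had 761, 801 and 842 adjusted reads in DMSO and 536, 537 and 500 in plaB, a log2 fold change of -0.61, opposite in sign to that of MIR4435-2HG.

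The total of the hosts depended on this transcript. The 23 measurable hosts summed to 5795, 5950 and 5889 adjusted reads in DMSO and 5612, 5711 and 5597 in plaB. Without MIR4435-2HG, the other 22 summed to 3259, 3330 and 3402 in DMSO and 2360, 2375 and 2312 in plaB. Neither sum overlapped between the groups, and the separation was wider without MIR4435-2HG. The fall of the second sum came mostly from MIR22HG, MIR193BHG and MIR210HG. Their means were 782, 402 and 219 adjusted reads in DMSO and 429, 134 and 56.3 in plaB. It was not a fall shared by all 22 hosts, since others, such as MIR31HG, MIR100HG and MIR23AHG, rose.

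**Figure D4:**
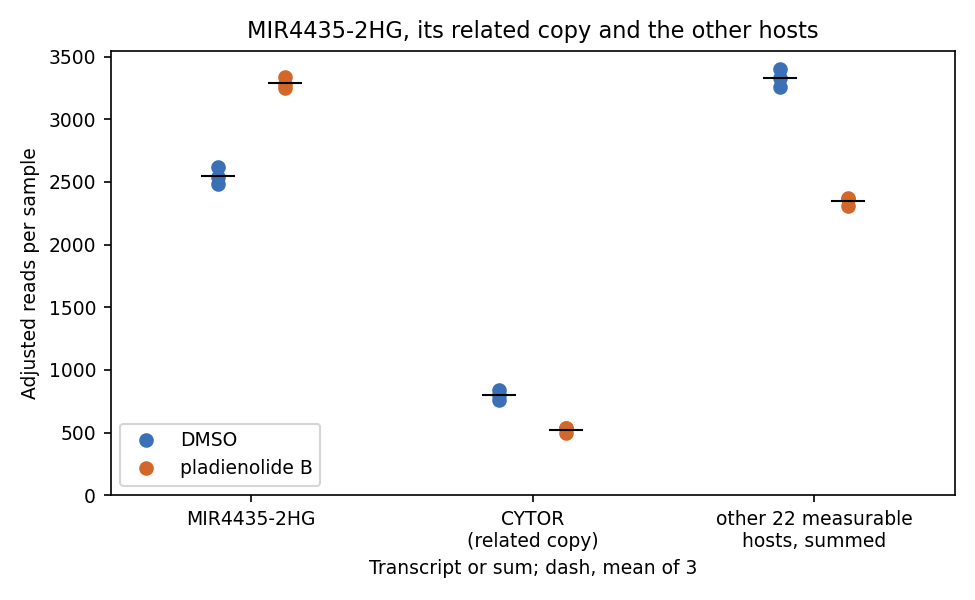
Adjusted reads per sample of MIR4435-2HG, its related copy CYTOR and the sum of the other 22 measurable microRNA host genes, with 1 point for each of 3 DMSO (blue) and 3 plaB (orange) samples and a dash at each mean. MIR4435-2HG was higher in every treated sample, and CYTOR and the sum of the other hosts were lower.

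When every gene with a read was kept, the fit held the 23 measurable hosts and the 32 others with some reads. Of these, 15 passed the threshold, a share near the 26.7% of the 27679 genes in that fit. MIR600HG and MIR100HG were lost, with limma adjusted p-values of 0.0895 and 0.0772, and 4 hosts with a mean under 10 passed: MIR99AHG, MIR3936HG and MIR663AHG were lower, with 36, 37 and 12 reads in DMSO and 11, 9 and 1 in plaB, and MIR583HG was higher, with 0 and 5. These reads are too few to rank the hosts. MIR3936HG overlaps SLC22A4 and SLC22A5 on the opposite strand, which had log2 fold changes of -0.71 and 0.14. Since it is not known whether reads were counted by strand, reads of these genes cannot be told apart from those of MIR3936HG.

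The remaining measurable hosts, MIR4458HG, MIR924HG, MIR570HG, MIR137HG, MIR4453HG and MIR5689HG, were not called. Their log2 fold changes lay between -0.50 for MIR5689HG and 0.45 for MIR924HG, which had the smallest adjusted p of the 6, 0.085 by limma. MIR4458HG, whose single mature product has the let-7 seed, had 82.7 to 88.9 adjusted reads in DMSO and 72.1 to 88.4 in plaB, and its interval ran from -0.39 to 0.28.

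The table also has rows for the microRNA hairpins themselves, 41 of them assigned to the 23 measurable hosts. By GENCODE, 20 lie in an exon of a host transcript, 5 partly in an exon and 15 in introns. The other 1, MIR570, lies within the position of MIR570HG but could not be placed, because GENCODE held no transcripts under that host's symbol. Few rows had a read: 2 of the 20 in exons, 1 of the 5 partly in exons, 4 of the 15 in introns and the MIR570 row. The rows of miR-22, miR-155, the miR-17-92 cluster and the miR-23a cluster were at 0 in all 6 samples, although their hosts were not. MIR2682, in MIR137HG, was the row with most reads, 29, 16 and 21 in DMSO and 21, 4 and 5 in plaB. Its groups overlapped, and it fell by 1.26 on the log2 scale (limma adjusted p = 0.0412), where the value of MIR137HG itself was -0.34 (limma adjusted p = 0.279). How a read that falls on both a host and a hairpin was counted is not given in the sources used here, so these rows measure neither hairpin nor mature microRNA levels.

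Genes that process microRNAs and genes that carry microRNAs under another name were examined beside the hosts. Of 22 processing genes, 20 were tested, of which 3 rose and 9 fell, with a median log2 fold change of -0.05. PRKRA, a partner of DICER1, fell by 0.56, AGO4, an Argonaute, by 0.37, and TUT4, which adds uridines to precursor microRNAs, by 0.36 on the log2 scale. DROSHA had a log2 fold change of -0.05 (limma adjusted p = 0.39), and DICER1 and DGCR8 fell by 0.16 and 0.19. Of 32 microRNA hosts that are not named as such, all were tested, of which 7 rose and 14 fell, with a median of -0.11. DLEU2, host of miR-15a and miR-16-1, fell by 1.16, EGFL7, host of miR-126, by 0.61, and SREBF1, host of miR-33b, by 0.57 on the log2 scale. The shares called, 12 of 20 and 21 of 32, stand beside the 47.6% of all genes. Without limma's variance trend 6 of the processing genes were called.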

How the data were processed

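RNA was sequenced from OVCAR8 cells after DMSO or pladienolide B, 3 samples each; nothing says that these were separate cultures, so p-values measure only the spread between these samples, which may be technical. The submitters' processing notes name HISAT2, HTSeq 0.12.4 and DESeq2 with build hg19, whereas the study's methods give hg38; 73 of the 75 hosts are in RefSeq's GRCh38.p14 gene table and all 73 overlap their position there. The authors deposited 1 signal per gene and sample, made like the pseudo-counts of edgeR (common dispersion 0.0027). Undone, it came within 0.02 of whole reads for 100% of 96432 values from 10 upwards, and remaking the signal from those reads changed it by at most 4.91e-05. The table's own fold changes, p-values and q-values were not used. Strand use in counting is not given in the sources used here.

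Genes passing filterByExpr of edgeR 4.0.16 run on the deposited signal (at least 0.409 CPM, which is 10 at the median sample total, in 3 samples, and 15 in total) were tested with limma 3.58.1 in R 4.3.3, with a variance trend, on log2(signal + 1), and adjusted over all 16178 genes at 0.05. The samples held 26130882, 25006154 and 26015151 reads in DMSO and 23345496, 22621338 and 24036812 in pladienolide B; a mean of 10 adjusted reads sets the precision of the lowest hosts. Hosts of different drivers were compared within samples by an exact permutation test. Scripts were tested on simulated data. The hosts, driver classes and gene lists were chosen with earlier results of these data known, and the fall of MIR210HG and of hypoxia genes was among those results, so it is not independent support. Named hosts are the measurable ones with an adjusted p below 0.05 and those of the driver classes; of each list, the 3 called genes with the largest change are named, and other genes were chosen after their values were seen. A regulator and the list of its targets are not reported here. Alternatives were no filter, at least 10 in every sample, pseudocounts of 0.1 and 5, the replicate number as a block, no variance trend, edgeR's quasi-likelihood test with TMM or RLE and DESeq2 1.42.0 on recovered reads, rescaling by median ratio, and leaving out each sample.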

Additional observations from a re-analysis of the deposited data

How the results depend on the processing

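Of 262 values checked under the alternatives, 234 kept their direction and side of the threshold, 27 kept the direction and lost the call, and 1 changed sign. The last was MIR222HG, which ranged from -0.024, without pladienolide B replicate 2, to 0.16 over the fits that left out 1 sample. Calls held in every alternative that tested them for 7 of the 13 called hosts and were lost in some for 6: MIR155HG, MIR23AHG, MIR600HG, MIR1915HG, MIR100HG and MIR762HG. The number of hosts called was 8 to 14 when 1 sample was left out, with 8 without pladienolide B replicate 2 and 9 without DMSO replicate 2, and the number higher was 2 to 5. It was 2 with at least 10 in every sample, a filter that left out MIR31HG and MIR100HG, and 2 with DESeq2, where the cause was not tested. Without the variance trend 6 processing genes were called instead of 12, and the cause was not tested. Replicate numbers did not pair the samples: deviations of same-numbered samples correlated at -0.018, -0.017 and 0.003. With the replicate number as a block 12 hosts, 4 higher and 8 lower, and 7349 genes were called, and MIR600HG had an adjusted p of 0.0528 by limma. Hosts with under about 20 adjusted reads allow only large changes to be detected.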
